A study of Homo sapiens with 6 samples.

Results

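The genes examined here encode the monocarboxylate transporters SLC16A1, SLC16A3, SLC16A5, SLC16A13 and SLC16A14, the transporter chaperone basigin (BSG) and the lactate dehydrogenase subunit LDHB, and they were measured in MCF10A cells. The set held 8 genes, chosen by family from the comparison of PDCD4-silenced with control cells and with the results of that comparison known. Of the 8, 7 had values in the tables used here, out of 34486 genes, and all 7 entered the test of 13047 genes. The differences between the groups are therefore given as a description of these genes and nothing is supported with them, while the shares of each gene's transcripts were not used in choosing the set and were tested.

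MCF10A is an untransformed line derived from human breast epithelium. In 3 libraries of total RNA the wild-type cells had been transfected for 48 h with 10 nM siRNA against PDCD4 (siPDCD4), an RNA-binding protein and tumour suppressor, and in 3 libraries with a control siRNA (siCT). All cells grew in the same medium with horse serum, epidermal growth factor, insulin, hydrocortisone and cholera toxin. The cells are 1 line, transiently depleted, and the labels do not say if the replicates came from separate cultures. Errors and p-values therefore cover the variation among these libraries, possibly technical alone.

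Glycolysis turns glucose into pyruvate, and lactate dehydrogenase interconverts pyruvate and lactate. Lactate leaves or enters the cell together with a proton through the SLC16 carriers, of which SLC16A1 (MCT1) and SLC16A3 (MCT4) are the best known, SLC16A3 being the export form typical of glycolytic cells. These carriers reach the plasma membrane only when bound to a small immunoglobulin-type glycoprotein, usually basigin. Several other SLC16 proteins carry aromatic amino acids or carnitine, or have no settled substrate.

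The libraries held between 13410441 and 21828931 estimated counts, and levels are given as CPM, counts scaled to a common library size and corrected for average transcript length. PDCD4 itself stood at 9.15, 7.43 and 8.62 CPM in siPDCD4 replicates 1, 2 and 3, against 90.4, 89.0 and 61.1 CPM in siCT replicates 1, 2 and 3. The siCT replicate 3 library was the shallowest and stood apart from the other 5 on the first principal component (30.6 against at most 8.65), and protein-coding genes took 76.2% of its counts, the lowest share. Its part in the values below was not tested beyond leaving it out. All 10 epithelial markers examined were expressed, with KRT5 between 1916 and 2601 CPM, and 0 of the 10 passed the test between the groups. However, the groups did not overlap in 3 of the 10 (TP63, KRT6A and ITGA6), against 13.9% of all genes tested. At an unadjusted edgeR p under 0.05 there were 4 of the 10, against 8.62% of all genes tested. The summed markers of fibroblasts reached at most 4.03 CPM (2.61 to 3.58 in siPDCD4 and 1.84 to 4.03 in siCT), those of leukocytes 10.8 CPM (7.89 to 9.61 and 7.79 to 10.8, with CD3E at 0) and those of endothelium 4.79 CPM (1.48 to 4.79 and 1.55 to 1.82). The endothelial gene PECAM1 was at 1.18, 2.01 and 4.28 CPM in siPDCD4, against 1.02, 0.987 and 1.01 CPM in siCT. KDR, another endothelial marker, lay lower in siPDCD4 (0.293 to 0.427 CPM) than in siCT (0.445 to 0.584 CPM). VWF reached at most 0.0745 CPM in siPDCD4 and 0.371 CPM in siCT, and CDH5 at most 0 and 0.0483 CPM. The part of these markers in the values below was not tested, and in such bulk samples fewer cells expressing a gene and less of its RNA per cell cannot be told apart.

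Across the set, 1 of the 7 genes passed the false discovery rate (FDR) of 5% in edgeR's quasi-likelihood test, namely SLC16A14, which was lower in siPDCD4. Over all 13047 genes tested, 0.429% passed in either direction and 0.261% passed as lower. DESeq2 likewise called SLC16A14 and none of the other 6 genes, where it called 1.28% of all genes it adjusted. Because the set was chosen with this comparison known, nothing is read from the count. SLC16A14 was also the only one of the 7 whose groups did not overlap, and 13.9% of all genes tested showed no overlap, with 7.14% of all genes lower in siPDCD4. The main lactate carriers SLC16A1 and SLC16A3, their chaperone BSG and the enzyme gene LDHB did not pass. The median log2 fold change of the 7 genes was 0.02, against -0.01 over all genes tested.

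**Figure D1:**
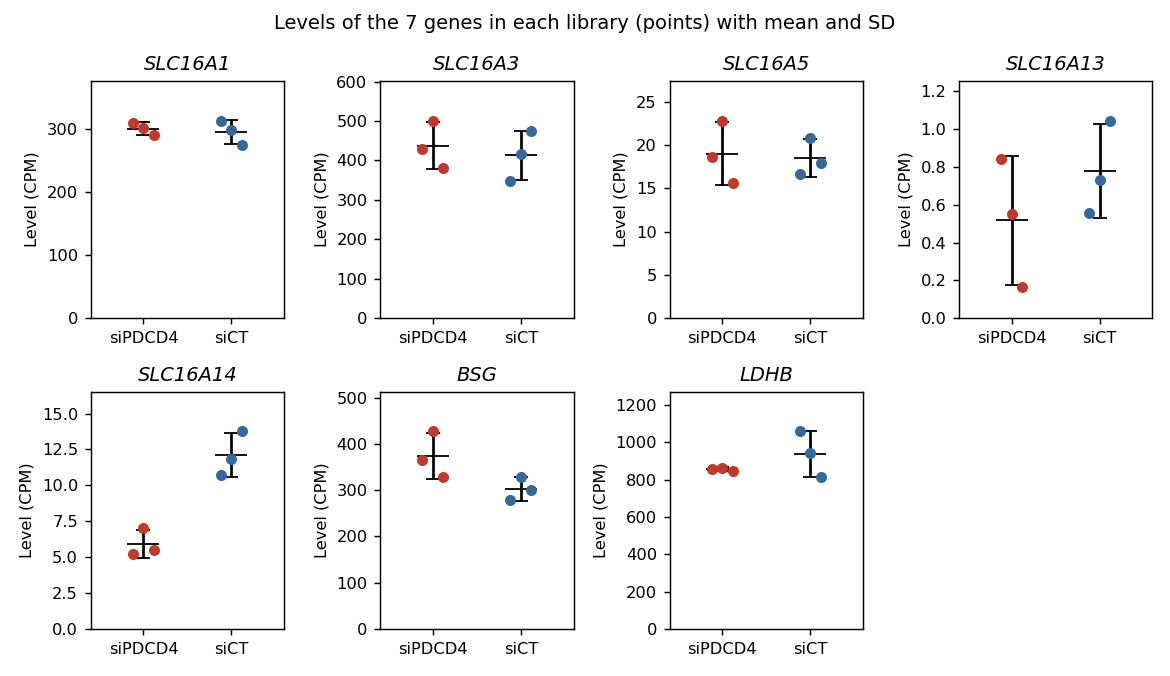
Level in CPM (y axis, from 0, own scale for each gene) of the 7 genes in each siPDCD4 (left, red) and siCT (right, blue) library. Black marks are group means with SD (n = 3). SLC16A14 stood between 5.24 and 7.04 CPM in siPDCD4 and between 10.7 and 13.8 CPM in siCT, and in the other 6 genes the groups overlapped.

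SLC16A14 encodes MCT14, a carrier of the family with no settled substrate. The gene (ENSG00000163053) lies on the minus strand of chromosome 2, from 230034982 to 230068993 in GRCh38. Its estimated counts were 109, 99 and 103 in siPDCD4 replicates 1, 2 and 3, and 222, 207 and 127 in siCT replicates 1, 2 and 3. As CPM the levels were 5.24, 7.04 and 5.47 in siPDCD4, against 10.7, 11.8 and 13.8 in siCT. Every siPDCD4 library was below every siCT library, and the highest siPDCD4 value was that of replicate 2. The means were 5.92 ± 0.984 CPM in siPDCD4 and 12.1 ± 1.54 CPM in siCT (SD, n = 3 each), a log2 fold change of -1.03 ± 0.18 (SE), so that the level dropped by 51.1%. The edgeR adjusted p was 0.0443, just under the threshold, and SLC16A14 ranked 166 of 13047 genes by the size of its fold change. The call was lost when any 1 of the 6 libraries was left out (adjusted p between 0.0710 and 0.236), while the log2 fold change then lay between -1.17 and -0.94, and it was -0.94 without siCT replicate 3.

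The reads of SLC16A14 were shared between a pair of annotated transcripts that part at the end of exon 4, and the junction is shown because the estimated share of each decides the length used to scale the gene. In SLC16A14-201, of 5 exons, exon 4 (chromosome 2, 230045745 to 230046722) is spliced to exon 5 (230034982 to 230037531). In SLC16A14-205, of 4 exons, the last exon runs on for 88 bases past that splice site, to 230045657. The 30 bases around this point are given 5′ to 3′ on the minus strand of GRCh38, with the 15 shared bases of exon 4 in lower case and the 15 bases that follow them in each transcript in capitals.
SLC16A14-201: gaccaccttttgcagGGTGGATCTATGACA
SLC16A14-205: gaccaccttttgcagGTAAACTCTCTGAGG
Both annotations are protein-coding, with coding lengths of 1530 bases in SLC16A14-201 and 1469 bases in SLC16A14-205, and the transcripts are 4315 and 1836 bases long. The 1469 bases are not a whole number of codons, so the coding sequence of SLC16A14-205 is incomplete as annotated.

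SLC16A14-205, the unspliced end, took 0, 4.79 and 0 estimated counts in siPDCD4 replicates 1, 2 and 3, against 18.4, 23.0 and 27.1 in siCT replicates 1, 2 and 3. In these counts, which are not scaled to library size, every siPDCD4 library was below every siCT library. How often other transcripts did so was not counted, and the gene as a whole was also lower in siPDCD4. The share of SLC16A14-205 in the gene's counts was 0%, 4.84% (95% Wilson interval 2.18 to 11.3%) and 0% in siPDCD4. For the counts of 0 the upper Wilson limits were 3.40% in replicate 1 and 3.60% in replicate 3. In siCT the share was 8.30% (5.19 to 12.5%), 11.1% (7.52 to 16.1%) and 21.4% (15.0 to 29.2%). These intervals cover counting error only and not the uncertainty of dividing reads between overlapping transcripts. The mean share was 1.61 ± 2.79% in siPDCD4 and 13.6 ± 6.88% in siCT (SD, n = 3 each). The test of isoform shares across 7879 genes did not call SLC16A14 (edgeR adjusted p = 1.00), and 0.444% of those genes were called.

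The spliced transcript SLC16A14-201 had 109, 92.8 and 103 estimated counts in siPDCD4, against 203, 184 and 96.1 in siCT. In these counts, which are not scaled to library size, siCT replicate 3 fell between siPDCD4 replicates 2 and 3. That library had the fewest counts in total (13410441, against 15547679 and 16824687 in siPDCD4 replicates 2 and 3). The overlap is thus one of unscaled counts, and levels of this transcript scaled to depth were not compared. Without any correction for length, the gene's counts as plain CPM of the library total were 5.85, 6.37 and 6.12 in siPDCD4 and 10.2, 11.2 and 9.47 in siCT, with no overlap. The average transcript length used for scaling was 4120, 3473 and 4113 bases in siPDCD4 and 3530, 3539 and 2635 bases in siCT. With the length left out of the model, the log2 fold change of SLC16A14 was -0.77 instead of -1.03, and the gene still passed (edgeR adjusted p = 0.0172).

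**Figure D2:**
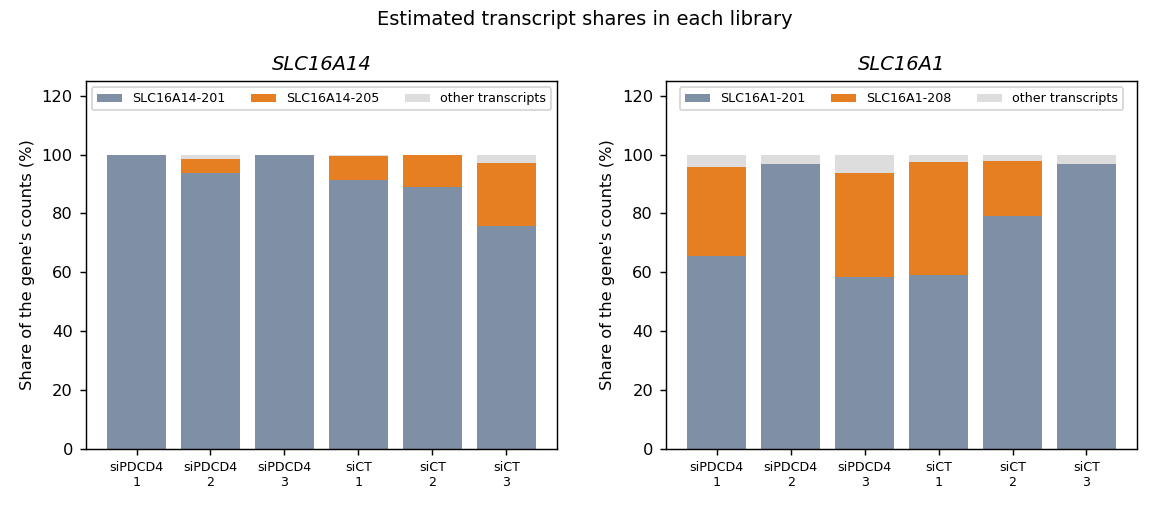
Share of the gene's estimated counts (y axis, percent) held by each transcript in each siPDCD4 and siCT library (x axis), for SLC16A14 (left) and SLC16A1 (right). SLC16A14-205 held at most 4.84% in siPDCD4 and at least 8.30% in siCT, whereas the share of SLC16A1-208 ran from 0 to 38.4% with no separation of the groups.

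**Figure D3:**
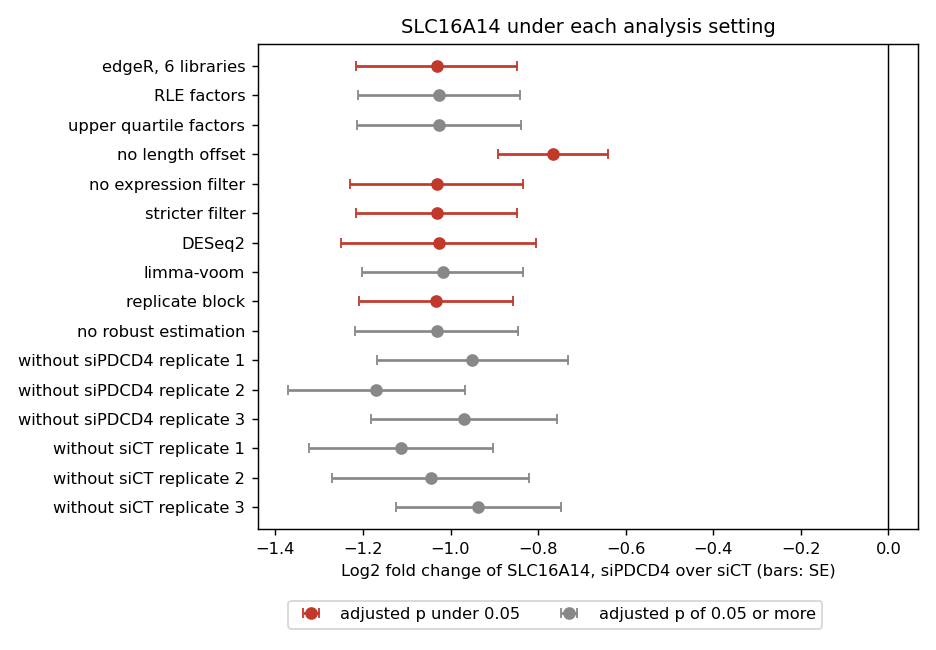
Log2 fold change of SLC16A14, siPDCD4 over siCT, with its SE (x axis) under each setting of the analysis (y axis), in red where the adjusted p was under 0.05. The values ran from -1.17 to -0.77, all below 0, and the adjusted p was under 0.05 in the edgeR fit of 6 libraries and in 5 of 15 alternatives.

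The 3 genes whose profile over the 6 libraries lay nearest to that of SLC16A14 were PSCA, CCBE1 and DNER, out of 12249 genes with a mean of at least 1 CPM. Nearness was the root mean square difference of log2 CPM after each gene's own mean was subtracted, and it was 0.081 for PSCA, 0.093 for CCBE1 and 0.131 for DNER. PSCA, a glycolipid-anchored surface protein, stood at 17.6, 19.7 and 17.3 CPM in siPDCD4 and 31.5, 35.9 and 38.4 CPM in siCT. CCBE1, a secreted protein needed for lymphatic vessel growth, stood at 9.29, 10.6 and 9.02 CPM in siPDCD4 and 18.4, 21.4 and 24.4 CPM in siCT. In both genes and in DNER (58.5 CPM), as in SLC16A14, siCT replicate 3 was the highest library. The genes were picked for a profile like that of SLC16A14, so this likeness follows from the choice and is no separate result.

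SLC16A1 encodes MCT1, the widely expressed proton-linked carrier of lactate and pyruvate. Its gene (ENSG00000155380) lies on the minus strand of chromosome 1, from 112911847 to 112957593. Its levels were 309.6, 300.3 and 289.7 CPM in siPDCD4 and 313, 298 and 275 CPM in siCT. The groups overlapped over nearly their whole range. The means were 299.8 ± 9.95 CPM in siPDCD4 and 295 ± 19.2 CPM in siCT (SD, n = 3 each), and the log2 fold change was 0.02 ± 0.08 (SE), its interval, at 1.96 SE, running from -0.14 to 0.18.

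Salmon divided the SLC16A1 reads between SLC16A1-201 and SLC16A1-208, which both have a coding length of 1500 bases. SLC16A1-208 took 30.4%, 0% and 35.3% of the gene's counts in siPDCD4, against 38.4%, 18.7% and 0% in siCT. Counts of 3411 to 6430 lay behind each value. By counting error alone, the counts of 0 allow shares of up to 0.0694% in siPDCD4 replicate 2 and 0.0879% in siCT replicate 3. Libraries of the same group thus differed far beyond counting error, and the share of this transcript did not separate the groups. These limits do not cover the uncertainty of dividing reads between overlapping transcripts. A count of 0 therefore need not mean that the transcript was absent, and the part of this division in the differences was not tested. The sum over the gene, by contrast, varied by only 3.32% in siPDCD4 and 6.52% in siCT (SD as a percentage of the mean).

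SLC16A3 encodes MCT4, the carrier that exports lactate from glycolytic cells and a known target of hypoxia-inducible factor. The gene (ENSG00000141526) lies on the plus strand of chromosome 17, from 82217934 to 82261129. It stood at 428, 501 and 382 CPM in siPDCD4 and 348, 417 and 474 CPM in siCT. The lowest library was siCT replicate 1 and the highest siPDCD4 replicate 2, with the others interleaved. The means were 437 ± 60.0 CPM in siPDCD4 and 413 ± 63.1 CPM in siCT (SD, n = 3 each), a log2 fold change of 0.08 ± 0.13 (SE) and an interval from -0.17 to 0.34. CSNK1D, which encodes a casein kinase, overlaps the 3′ end of SLC16A3 on the other strand, from 82239023 to 82273700, and its log2 fold change was 0.09 ± 0.10 (SE). Whether strand was used in the quantification was not given in the sources used here, so reads of this stretch may be shared between the genes. The transcript SLC16A3-213 held 64.1 to 77.7% of the gene's counts and SLC16A3-210 13.1 to 19.1%, both with a coding length of 1395 bases, and the isoform test did not call the gene (edgeR adjusted p = 1.00).

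SLC16A5 encodes MCT6, a carrier known for transport of the drug bumetanide. The gene (ENSG00000170190) lies on chromosome 17, plus strand, from 75087727 to 75106162. It stood at 18.6, 22.8 and 15.6 CPM in siPDCD4 and 16.6, 20.9 and 17.9 CPM in siCT, so that both the highest and the lowest library were siPDCD4. The log2 fold change was 0.04 ± 0.16 (SE) and turned to -0.06 when transcript length was left out of the model. SLC16A5-202 held 65.4 to 75.5% of its counts and SLC16A5-203 17.7 to 26.8%.

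SLC16A13 encodes MCT13, a less studied carrier of the family. The gene (ENSG00000174327) lies on chromosome 17, plus strand, from 7036015 to 7040117. It was close to the limit of detection, with 15, 9 and 3 counts in siPDCD4 and 12, 11 and 11 counts in siCT. The levels were 0.841, 0.551 and 0.163 CPM in siPDCD4 and 0.555, 0.732 and 1.04 CPM in siCT, with overlap. Its log2 fold change of -0.53 ± 0.55 (SE) had an interval from -1.61 to 0.54, so that a difference the size of that in SLC16A14 could not be detected at this depth.

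BSG encodes basigin (CD147), the chaperone that SLC16A1 and SLC16A3 need to reach the membrane, also known as an inducer of matrix metalloproteinases. The gene (ENSG00000172270) lies on chromosome 19, plus strand, from 571277 to 583494. It stood at 365, 428 and 328 CPM in siPDCD4 and 279, 329 and 300.3 CPM in siCT. The groups touched only between siPDCD4 replicate 3 (328.2 CPM) and siCT replicate 2 (329.3 CPM). The means were 374 ± 50.2 CPM in siPDCD4 and 303 ± 25.4 CPM in siCT (SD, n = 3 each), a log2 fold change of 0.30 ± 0.11 (SE). BSG did not pass the threshold (edgeR adjusted p = 0.405), and in the 15 alternatives its log2 fold change ran from 0.20 to 0.40 without passing.

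The coding transcript BSG-203, of 807 coding bases, held 83.1 to 87.4% of the BSG counts in the 6 libraries and BSG-207 6.16 to 8.86%. BSG-201, the long form known from the retina, with 1155 coding bases, had 0 counts in 5 libraries and 2.08 counts in siCT replicate 3. The isoform test did not call BSG (edgeR adjusted p = 1.00). None of the 5 genes of the set that it could test was called. In simulated data this test recovered 11 of 100 2-fold and 54 of 100 4-fold changes, so real shifts can go uncalled.

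LDHB encodes the H subunit of lactate dehydrogenase, the form that prevails in heart muscle. The gene (ENSG00000111716) lies on the minus strand of chromosome 12, from 21635342 to 21757857. Its levels were 859.5, 863 and 844 CPM in siPDCD4 and 1059, 944 and 811 CPM in siCT. The siPDCD4 libraries lay close together and inside the range of the siCT libraries. The means were 855 ± 9.80 CPM in siPDCD4 and 938 ± 124 CPM in siCT (SD, n = 3 each), and the log2 fold change was -0.13 ± 0.10 (SE), its interval running from -0.33 to 0.07. LDHB-201 held 99.2 to 99.4% of the counts. The pseudogene LDHBP1, which could share reads, had at most 28.5 counts, and an unnamed gene whose coordinates overlap LDHB at most 19.8 counts.

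Levels of different genes are compared as TPM, which divides by transcript length. LDHB was the highest, at 638 to 837 TPM over the 6 libraries, followed by BSG (210.0 to 335 TPM), SLC16A3 (130.3 to 195 TPM) and SLC16A1 (67.6 to 79.9 TPM). SLC16A5 (8.19 to 12.1 TPM), SLC16A14 (1.35 to 3.38 TPM) and SLC16A13 (0.104 to 0.643 TPM) came after them. The ranges of these 7 genes did not overlap one another. Among the other carriers, SLC16A7 (MCT2, the high-affinity lactate and pyruvate carrier), at 7.79 to 10.6 TPM, could not be told from SLC16A5. SLC16A4, at 2.60 to 3.34 TPM, overlapped SLC16A14 in siCT and lay above all siPDCD4 values of that gene.

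**Figure D4:**
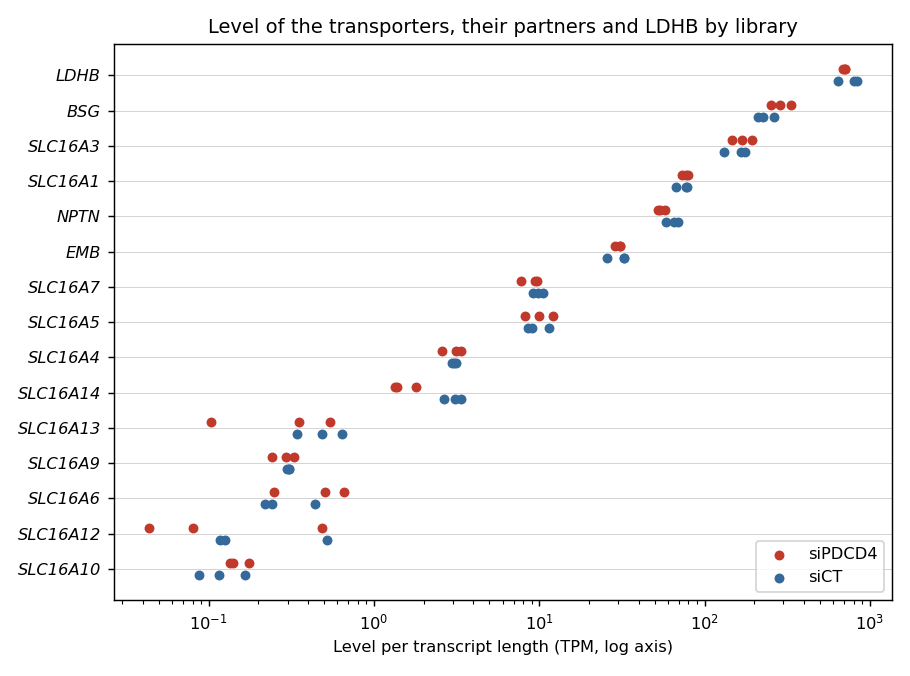
Level in TPM (x axis, log scale) of SLC16 genes, the chaperones BSG, EMB and NPTN, and LDHB in each siPDCD4 (red, upper points) and siCT (blue, lower points) library, for genes above 0 in all 6 libraries. LDHB, BSG, SLC16A3 and SLC16A1 stood highest in both groups, and SLC16A14 lay at 1.35 to 1.80 TPM in siPDCD4 and 2.65 to 3.38 TPM in siCT.

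SLC16A1 and SLC16A3 together made up 87.5 to 89.8% of the summed TPM of the 14 SLC16 genes in every library. SLC16A3 exceeded SLC16A1 2.10-, 2.53- and 2.00-fold in siPDCD4, and 1.69-, 2.12- and 2.62-fold in siCT. The ratio overlapped between the groups. SLC16A14 was a minor carrier mRNA, at 0.489, 0.592 and 0.554% of the summed TPM in siPDCD4 and 1.12, 1.11 and 1.23% in siCT. BSG transcripts stood at 1.16, 1.23 and 1.15 per transcript of SLC16A1 and SLC16A3 together in siPDCD4, against 1.01, 1.08 and 0.922 in siCT. This ratio did not overlap between the groups, although BSG alone did, and since it is built from the compared values it was not tested.

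The rest of the family and its partners held 18 genes, of which 9 could be tested and 0 passed, with 1 at an unadjusted edgeR p under 0.05 (NPTN). Of the 9, 3 had log2 fold changes above 0 and 6 below, with a median of -0.04. NPTN, neuroplastin, a relative of basigin that can also escort carriers, stood at 83.6, 78.9 and 77.5 CPM in siPDCD4 and 98.5, 97.9 and 88.6 CPM in siCT. Its groups did not overlap, the log2 fold change being -0.25 ± 0.09 (SE), but it did not pass (edgeR adjusted p = 0.381). EMB, embigin, the other chaperone of the family and the partner preferred by SLC16A7, had a log2 fold change of -0.03 ± 0.10 (SE), and SLC16A7 one of -0.15 ± 0.10 (SE).

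Of the carriers with other or unsettled substrates, SLC16A4 had a log2 fold change of -0.04 ± 0.19, SLC16A9 of -0.09 ± 0.32, SLC16A10 (aromatic amino acids) of 0.29 ± 0.35 and SLC16A6 of 0.54 ± 0.46 (SE). HCAR1, the surface receptor for lactate, had one of -0.29 ± 0.37 (SE). None of these passed. SLC16A6, SLC16A9, SLC16A10 and HCAR1 were each at about 2 CPM or less in every library, so that only large differences could have been detected. SLC16A8, SLC16A11 and the sodium-coupled carrier SLC5A8 had 0 counts in all 6 libraries.

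**Figure D5:**
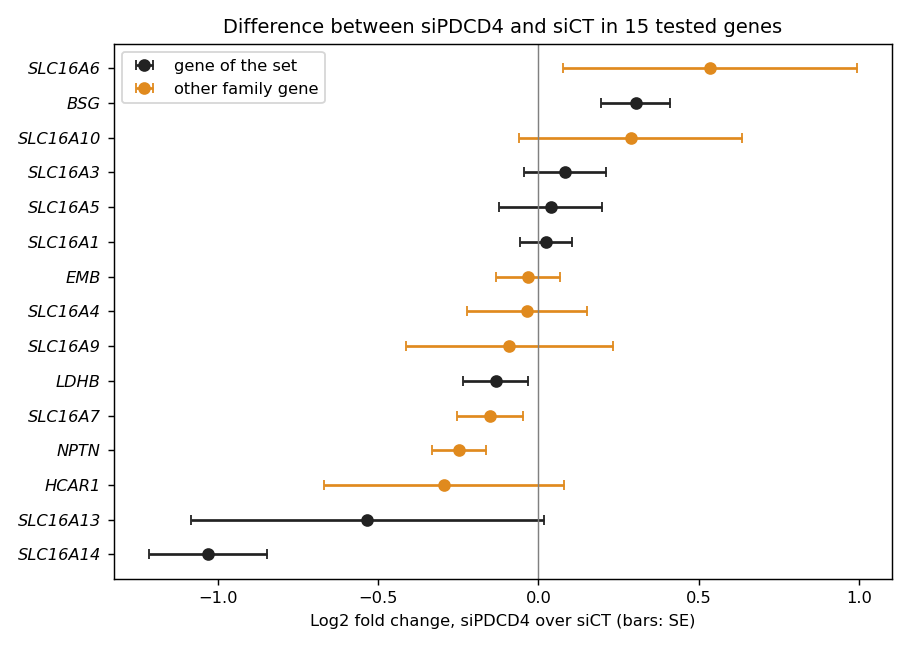
Log2 fold change, siPDCD4 over siCT, with its SE (x axis) of the 7 genes of the set (black) and 8 other tested genes of the family (orange), ordered by value. SLC16A14, at -1.03, was the lowest, BSG stood at 0.30 and NPTN at -0.25, and SLC16A13 and SLC16A6 had the widest errors among the carriers.

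The pathways around the carriers were followed in 5 lists, and 0 of their 63 tested genes passed, against 0.429% of all genes. At an unadjusted edgeR p under 0.05 there were 3 genes in the lists (PFKP, ALDOC and PC), against 8.62% of all genes tested. Of 18 glycolytic enzyme genes, 4 had log2 fold changes above 0 and 14 below, with a median of -0.11, against -0.01 over all genes tested. The smallest p values in this list belonged to PFKP, the platelet-type phosphofructokinase, at -0.25 ± 0.08, ALDOC, an aldolase, at -0.39 ± 0.16, and HK1, a hexokinase, at -0.16 ± 0.07 (log2 fold change ± SE). PFKP stood at 295, 286 and 270.2 CPM in siPDCD4 and 334, 323 and 355 CPM in siCT, with no overlap, and did not pass (edgeR adjusted p = 0.330).

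Of the glucose transporter genes, 6 were tested, with a median log2 fold change of 0.21, and the smallest p values were those of SLC2A9 (0.21 ± 0.13), SLC2A8 (0.21 ± 0.19) and SLC2A3 (0.36 ± 0.45, SE). In the list of mitochondrial pyruvate entry 15 genes were tested, 10 above 0 and 5 below, with a median of 0.06. PC, pyruvate carboxylase, which makes oxaloacetate from pyruvate, stood at 69.9, 78.9 and 70.5 CPM in siPDCD4 and 55.6, 66.9 and 54.5 CPM in siCT, with a log2 fold change of 0.31 ± 0.11 (SE), and did not pass (edgeR adjusted p = 0.381). PDHX, a structural part of the pyruvate dehydrogenase complex, was at -0.19 ± 0.10, and PDP1, the phosphatase that activates this complex, at 0.20 ± 0.11 (log2 fold change ± SE).

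Among 9 tested genes of acid and bicarbonate handling the median log2 fold change was 0.04, with 5 above 0 and 4 below. ATP6V0A1, a proton pump subunit, was at 0.20 ± 0.12 and NHERF1, an exchanger regulator, at -0.18 ± 0.11 (log2 fold change ± SE). Among 15 genes of the hypoxia-inducible factors and genes they are known to induce, 7 were above 0 and 8 below, with a median of -0.09. HIF1A, the oxygen-regulated factor subunit, was at -0.20 ± 0.09, BNIP3, a mitophagy receptor, at -0.19 ± 0.09 and EGLN3, a prolyl hydroxylase, at 0.26 ± 0.20 (log2 fold change ± SE). The smallest edgeR adjusted p in the hypoxia list was 0.586.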

How the data were processed

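RNA of 6 MCF10A libraries (3 siPDCD4, 3 siCT) was prepared with a stranded total RNA kit and read as pairs of 75 bases. The authors deposited Salmon tables of estimated counts and TPM per transcript, quantified against Ensembl annotation of GRCh38. The Salmon version was not given in the sources used here. Of 194142 transcripts listed, 181244 matched GENCODE 44 by identifier, and the unmatched took 5.47 to 6.21% of counts and were left out. Gene names, coordinates and the printed bases came from GENCODE 44 and GRCh38.

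Counts were summed per gene, rounded, and tested with edgeR 4.0.16 (R 4.3.3): trimmed mean scaling, a length offset, the default expression filter, the robust quasi-likelihood test of siPDCD4 over siCT, and Benjamini-Hochberg adjustment over 13047 genes at FDR 5%. Isoform shares were tested with the same package's Simes test for transcripts with at least 5% of a gene's counts. The tests were tried on simulated data with 100 changed genes per fold. There edgeR recovered 74 of the 2-fold and 91 of the 4-fold changes and called 10 unchanged genes. DESeq2 recovered 76 and 91 and called 24 unchanged genes. The isoform test recovered 11 of the 2-fold and 54 of the 4-fold changes and called 24 unchanged genes. Intervals are log2 fold change ± 1.96 SE. Alternatives were other scaling, filters and offsets, DESeq2 1.42.0, limma 3.58.1 (voom), a replicate block and leaving out each library.

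The genes and lists were chosen with earlier results of these data known. Named were the genes of the set, the other tested family genes, in each pathway list genes past the threshold and up to 3 with the smallest p, transcripts with at least 5% of a gene's counts, and the 3 nearest profiles to SLC16A14 (pseudocount 0.5). TP63, KRT6A, ITGA6, BSG-201, CSNK1D, the endothelial markers, the LDHB overlaps and the neighbours of SLC16A14 were named outside this rule. Their values had been seen before they were named. The eighth gene of the set, 2 of 9 glucose transporter genes and some other genes of the lists are not reported here.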

Additional observations from a re-analysis of the deposited data

How the results depend on the processing

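The count of genes past the threshold was 56 of 13047, and it was 128 without the length offset, 108 without an expression filter and 180 with DESeq2. Leaving out 1 library gave between 17 and 40 genes. Within the set the count was 1 (SLC16A14) and became 0 with RLE factors, with upper quartile factors, with limma-voom, without robust estimation and in all 6 fits that left out a library (0 to 0). SLC16A14 had an edgeR adjusted p of 0.0523 with RLE factors and 0.0544 with upper quartile factors, and over the 15 alternatives its adjusted p ran from 0.000972 (DESeq2) to 0.236. Over all genes with changed isoform shares the count was 35, and it was 10 with a 10% minimum share and between 38 and 50 with a library left out. None of these made a call in the set.

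Whether the replicate numbers pair the libraries is not settled by these values. The deviations of equally numbered libraries correlated at 0.0717, 0.117 and 0.183, and those of unequally numbered libraries at -0.193 to 0.102. However, siPDCD4 replicate 1 correlated best with siCT replicate 2 (0.102). With the replicate block 102 genes passed, among them all 56, and SLC16A14 had an edgeR adjusted p of 0.0442. With the block 17 genes passed for isoform shares.

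Log2 fold changes of genes that did not pass changed sign when a library was left out for SLC16A1 (-0.027 to 0.066), SLC16A3 (-0.027 to 0.19), SLC16A5 (-0.11 to 0.17), SLC16A4 (-0.11 to 0.069), SLC16A9 (-0.19 to 0.028), EMB (-0.12 to 0.039) and SLC2A3 (-0.24 to 0.68). SLC16A5 was at -0.057 without the length offset. Of 478 recomputed values of 32 genes, 456 kept their direction and side of the threshold. SLC16A13 gave no value under the stricter filter or without siPDCD4 replicate 1. Its counts of 3 to 15 limit what can be said of it.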

Other observations

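SLC16A14 and DNER, a Notch-related transmembrane protein whose profile was among the nearest to it, lie on the same strand of chromosome 2 with a gap of 320 kb between them. DNER, from 229357629 to 229714555 in GRCh38, stood at 25.4, 29.8 and 30.0 CPM in siPDCD4 and 54.2, 50.5 and 58.5 CPM in siCT, and was lower in siPDCD4 (log2 fold change -0.94 ± 0.11, SE, edgeR adjusted p = 0.00489). The other tested genes between them were TRIP12, a ubiquitin ligase, with a log2 fold change of -0.00 ± 0.07, and FBXO36, with one of 0.00 ± 0.33 (SE). TRIP12 stood between 329.9 and 346 CPM in siPDCD4 and between 329.6 and 348 CPM in siCT, whereas FBXO36 was at most 2.52 CPM. On the far side of SLC16A14 the nearest tested gene was SP110, a nuclear body protein, at 0.15 ± 0.15 (log2 fold change ± SE). These neighbours were looked at after the values were seen, and no test was made of their position.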
